A study of Rattus norvegicus with 15 samples.

Results

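Genes of bone-forming cells were followed in knee articular cartilage of Sprague-Dawley rats over 5 stages of life. The 9 genes are Bglap, Ibsp, Dmp1, Mepe, Alpl, Phex, Sp7, Sost and Fgf23, chosen by name as markers of osteoblasts and osteocytes, out of 18166 genes that the array names by a single symbol. Each of them had 1 probe set, and that probe set stands for the gene. The stages were T0 (newborn), T1 (youth), T2 (adult), T3 (early-stage elderly) and T4 (latter-stage elderly), with 3 arrays each and 15 in all. No treatment or genotype separates them, and ages in days or months are not given in the labels. Cartilage was taken from the right knee of each rat, ground, and its total RNA hybridised to an Affymetrix RaGene 2.0 ST array. The labels call the arrays of a stage biological replicates. The labels of T1 replicate 3 conflict: the source name says adult, while title and stage say youth, so it was kept at T1.

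Osteoblasts lay down bone matrix, a scaffold of type I collagen that then fills with calcium phosphate mineral. Those that become enclosed in it turn into osteocytes, which sense load and steer both mineralization and the phosphate balance of the body. Articular cartilage is normally free of mineral above its deepest layer, where calcified cartilage meets the bone beneath. Some of the 9 genes, among them Ibsp, Alpl and Sp7, are also used by hypertrophic chondrocytes, the cartilage cells that prepare for mineralization. In bulk tissue, fewer cells of a type and less RNA per cell cannot be told apart.

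RefSeq's promoter table for GRCr8 held 6 of the 9 genes, and the windows of the 3 that held a searched motif are shown. Those of Alpl, Dmp1 and Sost held none, so Dmp1, the member with the largest rise at T1 over T0, is not among those shown. Each line gives the 150 bases before the annotated start on the gene's own strand, which is the minus strand for all 3 genes. They are chr2:176137319-176137468 for Bglap, chr14:5736859-5737008 for Mepe and chr14:5757243-5757392 for Ibsp. Capitals mark matches to 4 motifs searched on both strands in the 250 bases before the start, the RUNX site AACCACA, the TATA box TATAAA, the homeodomain site TAATTA and the AP-1 site TGAGTCA, and none of the matches overlapped.
Bglap: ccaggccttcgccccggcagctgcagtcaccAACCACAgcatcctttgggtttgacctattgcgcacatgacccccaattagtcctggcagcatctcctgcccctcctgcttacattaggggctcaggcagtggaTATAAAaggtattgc
Mepe: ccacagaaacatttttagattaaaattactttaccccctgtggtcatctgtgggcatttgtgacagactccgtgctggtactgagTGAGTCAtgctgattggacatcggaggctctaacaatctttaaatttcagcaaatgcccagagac
Ibsp: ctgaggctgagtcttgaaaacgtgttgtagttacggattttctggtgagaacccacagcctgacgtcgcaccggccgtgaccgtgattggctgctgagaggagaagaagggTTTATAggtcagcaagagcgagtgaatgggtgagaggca
The Bglap window held the RUNX site 119 to 113 bases before the start and a TATA box at 15 to 10. The Mepe window held the AP-1 site at 65 to 59 and, beyond the bases shown, the homeodomain site at 238 to 233. The Ibsp window held the TATA box on the opposite strand at 39 to 34. Of all 33469 promoters in the table, 4.59% held the RUNX site, 12.9% the TATA box, 4.86% the homeodomain site and 4.05% the AP-1 site. A shorter RUNX core, ACCACA, was tried after these matches were seen; it occurs in 14.5% of promoters and in 2 of the 6 members (Bglap and Mepe). A match is a description of the letters and no measure of binding.

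The tissue label was checked against cartilage genes. Type II collagen Col2a1 had mean log2 signals of 12.36, 12.50, 11.91, 9.70 and 8.0 from T0 to T4, aggrecan Acan 11.68, 11.17, 10.17, 8.95 and 6.61, and the lubricant Prg4 9.18, 10.79, 10.96, 9.82 and 7.07. The spread of signals within an array was narrower at T4 (SD over probe sets 1.48 to 1.71) than at T0 (2.00 to 2.03). Probe sets of olfactory receptors, genes of the nose that cartilage has no known use for, served as a yardstick for low signals. Their 95th percentile on an array lay between 4.79 and 4.92 at T0 to T2, between 4.95 and 5.56 at T3 and between 5.87 and 6.69 at T4 (1198 probe sets). T4 replicate 1 stood farthest from the other arrays, with an SD of 1.48 and an olfactory 95th percentile of 6.69.

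Of the 9 genes, 7 had their highest mean at T1 (Bglap, Ibsp, Dmp1, Mepe, Alpl, Phex and Sp7), and Sost and Fgf23 had theirs at T3. The share of all probe sets with their highest mean at T1 was not computed. Only for Phex did the highest stage differ from the next by limma's test (T2 over T1, adjusted p = 0.0406). Bglap and Sp7 lay above the olfactory 95th percentile on all 15 arrays. Ibsp, Alpl, Dmp1 and Sost did so on 14, Mepe on 13, Phex on 12 and Fgf23 on 1. Each of the 9 genes passed limma's moderated F test over the stages (Benjamini-Hochberg adjusted p between 2.75e-05 for Bglap and 0.02 for Fgf23), as did 60.1% of all probe sets. The plot of signals by stage shows each array.

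**Figure D1:**
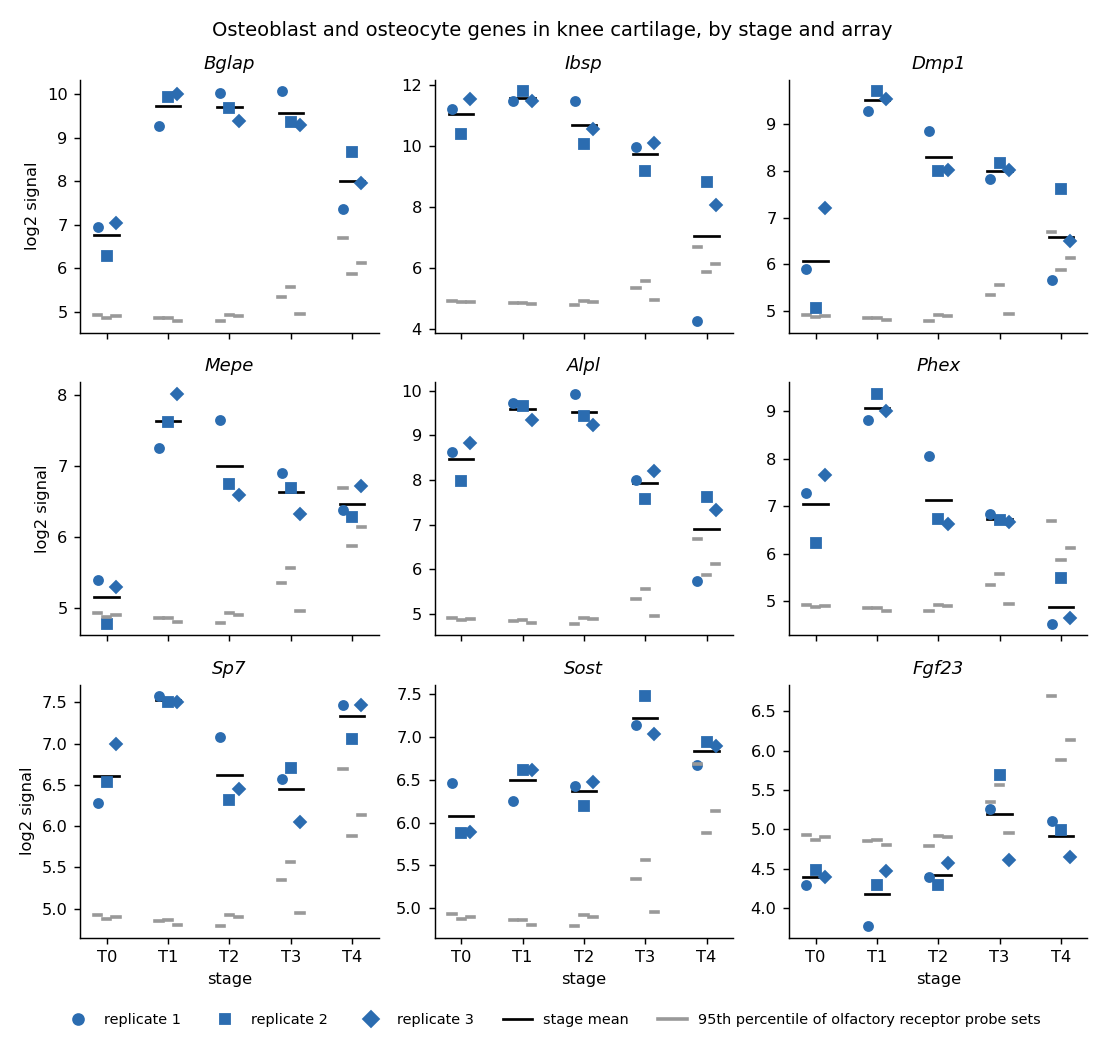
Log2 signal of the 9 genes on each array (symbols, by replicate) over the stages T0 to T4, with the stage mean as a black bar (n = 3) and the 95th percentile of olfactory receptor probe sets on that array as a grey dash. The axes do not start at 0 and differ between panels; 7 genes have their highest mean at T1, and Fgf23 lies above the grey dash on 1 of 15 arrays.

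Among the secreted matrix proteins, Bglap encodes osteocalcin, a small calcium-binding protein that osteoblasts make late in their life. Its log2 signal was 6.95, 6.28 and 7.04 at T0, 9.27, 9.93 and 10.02 at T1, 10.03, 9.69 and 9.39 at T2, 10.07, 9.37 and 9.29 at T3, and 7.37, 8.68 and 7.95 at T4. The newborn arrays lay below every other array, and the arrays of T1, T2 and T3 overlapped. Bglap rose by 2.98 on the log2 scale at T1 over T0 (SE 0.35, 7.90-fold, n = 3 each, limma adjusted p = 7.63e-05). It then stood at a difference of -0.03 for T2 over T1 (95% interval -0.78 to 0.71) and -0.13 for T3 over T2 (95% interval -0.88 to 0.61), neither past the test. It fell by 1.57 at the last step (SE 0.35, limma adjusted p = 0.0036). After quantile normalization the last difference was -0.66 and missed the threshold (adjusted p = 0.104). Bglap at T4 over T0 was 1.24 (SE 0.35, limma adjusted p = 0.00798), a comparison in which 54.9% of all probe sets were called. In it 54.4% of the olfactory receptor probe sets were called higher, with a median difference of 0.81, and the part of that shift in the value was not tested.

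Dmp1 encodes dentin matrix protein 1, an acidic protein of osteocytes whose loss raises FGF23 and wastes phosphate. Log2 signals were 5.91, 5.07 and 7.22 at T0, 9.29, 9.71 and 9.55 at T1, 8.85, 8.01 and 8.03 at T2, 7.83, 8.18 and 8.02 at T3, and 5.67, 7.61 and 6.51 at T4. Every T1 array lay above every array of the other stages, and the newborn arrays had the widest spread (SD 1.08). The rise at T1 over T0 was 3.45 (SE 0.50, 10.9-fold, limma adjusted p = 0.000458), place 56 of 18166 genes ordered from the largest rise. T2 over T1 gave -1.22 (SE 0.50) without overlap of the arrays and did not pass the test (limma adjusted p = 0.457). Dmp1 fell by 1.41 at T4 over T3 (SE 0.50, limma adjusted p = 0.0356). That call was lost in 8 of 23 alternatives, among them without T4 replicate 1, where the difference was -0.95 (adjusted p = 0.163), and without any 1 of the T3 arrays (adjusted p between 0.0609 and 0.0805) or T4 replicate 3 (adjusted p = 0.0774).

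Mepe encodes matrix extracellular phosphoglycoprotein, an osteocyte protein that yields a peptide holding back mineral growth. The arrays gave log2 signals of 5.39, 4.77 and 5.29 at T0, 7.25, 7.61 and 8.01 at T1, 7.64, 6.74 and 6.58 at T2, 6.89, 6.68 and 6.32 at T3, and 6.37, 6.28 and 6.71 at T4. As for Bglap, the newborn arrays lay below all others, and T0 replicate 2 was not above the olfactory 95th percentile. Mepe rose by 2.47 at T1 over T0 (SE 0.30, 5.55-fold, limma adjusted p = 0.000103). No later step passed the test, with differences of -0.64 (SE 0.30), -0.35 (SE 0.30) and -0.18 (SE 0.30) for T2 over T1, T3 over T2 and T4 over T3. T4 over T0 was 1.30 (SE 0.30, limma adjusted p = 0.00229), beside the same median shift of 0.81 in olfactory receptor probe sets. Mepe on T4 replicate 1 (6.37) lay below the olfactory 95th percentile of that array (6.69).

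Ibsp encodes bone sialoprotein, which binds cells through integrins and seeds mineral. Measured log2 signals were 11.22, 10.39 and 11.55 at T0, 11.48, 11.80 and 11.47 at T1, 11.47, 10.06 and 10.56 at T2, 9.96, 9.17 and 10.12 at T3, and 4.25, 8.82 and 8.05 at T4. The newborn and youth arrays overlapped, unlike those of the other matrix genes. T1 over T0 was 0.53 (95% interval -1.26 to 2.32, limma adjusted p = 0.933), so a rise as large as that of Bglap lay outside the interval. Ibsp fell by 2.70 at T4 over T3 (SE 0.84, limma adjusted p = 0.0195), place 13 of 18166 genes ordered from the largest fall. That size rests on T4 replicate 1, whose 4.25 lay below the olfactory 95th percentile of that array (6.69). The call ended without T3 replicate 1 (-2.60, adjusted p = 0.0547) or T3 replicate 3 (-2.52, adjusted p = 0.063), and after quantile normalization (-2.35, adjusted p = 0.0867). Without T4 replicate 1 it was -1.31 (2.48-fold, adjusted p = 0.0362), place 779.

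Of the enzymes, Alpl encodes tissue-nonspecific alkaline phosphatase, which clears the mineral inhibitor pyrophosphate. Its log2 signal was 8.62, 7.99 and 8.83 at T0, 9.74, 9.66 and 9.36 at T1, 9.94, 9.44 and 9.23 at T2, 8.0, 7.58 and 8.21 at T3, and 5.74, 7.62 and 7.33 at T4. The T1 and T2 arrays overlapped each other and lay above all other arrays. T1 over T0 was 1.11 (SE 0.40, limma adjusted p = 0.142) and T3 over T2 was -1.61 (SE 0.40, limma adjusted p = 0.0773), so neither step passed the test. Without T4 replicate 1 both did (adjusted p = 0.0119 and adjusted p = 0.0199), with the differences unchanged since that array is in neither comparison. T3 over T2 passed without T3 replicate 3 as well (-1.75, adjusted p = 0.0305). Over all probe sets, calls at T3 over T2 rose from 55 in the fit reported to 1961 without T4 replicate 1 and 4165 without T3 replicate 3. T4 over T3 was -1.03 (SE 0.40, limma adjusted p = 0.0521) and did not pass the test. Without T4 replicate 1, where Alpl lay below the olfactory 95th percentile, it was -0.45 (adjusted p = 0.243). It passed in 5 of 23 alternatives, among them without T3 replicate 2 (-1.21, adjusted p = 0.0458), T4 replicate 2 (-1.40, adjusted p = 0.013) or T4 replicate 3 (-1.25, adjusted p = 0.0411). Over a longer span, Alpl fell by 2.64 at T4 over T2 (SE 0.40, 6.23-fold, limma adjusted p = 0.000161), and this call held in 23 of 23 alternatives.

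Phex encodes a cell-surface endopeptidase of osteoblasts and osteocytes whose loss causes X-linked hypophosphatemia. On the log2 scale it read 7.29, 6.23 and 7.65 at T0, 8.83, 9.37 and 9.01 at T1, 8.05, 6.73 and 6.63 at T2, 6.84, 6.71 and 6.67 at T3, and 4.53, 5.48 and 4.65 at T4. The youth arrays lay above all others and the T4 arrays below all others, none of them above the olfactory 95th percentile. Phex rose by 2.02 at T1 over T0 (SE 0.41, 4.04-fold, limma adjusted p = 0.00542), a call lost with T1 replicate 3 placed with T2 (2.04, adjusted p = 0.0767). It fell by 1.93 at T2 over T1 (SE 0.41, 3.82-fold, limma adjusted p = 0.0406), place 50 of 18166 genes ordered from the largest fall. That fall had the same direction in 25 alternatives and passed the test in 12 of them. Among the arrays left out in turn, it was lost without any of the T1 arrays, T2 replicates 2 and 3, T0 replicate 1, T3 replicates 1 and 2 or T4 replicate 3, with adjusted p between 0.051 and 0.211. T2 over T0 was 0.08 (95% interval -0.79 to 0.95), so the adult level was not told from the newborn one. At T4 over T3 Phex fell again, with a difference of -1.85 between measured means (SE 0.41, limma adjusted p = 0.0035), a call kept in 23 of 23 alternatives. As its T4 signals were not above the yardstick, the size is given as a bound: at least 1.42-fold lower at T4, with each T4 array taken at its olfactory 95th percentile.

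Sp7 encodes osterix, the transcription factor that osteoblast precursors need to mature. Signals on the log2 scale were 6.28, 6.53 and 7.00 at T0, 7.57, 7.50 and 7.50 at T1, 7.08, 6.32 and 6.45 at T2, 6.57, 6.71 and 6.05 at T3, and 7.47, 7.05 and 7.46 at T4. The youth arrays lay above all others. Sp7 rose by 0.92 at T1 over T0 (SE 0.26, 1.90-fold, limma adjusted p = 0.0411). The call held in 14 of 25 alternatives and ended without T0 replicates 1 or 2, any of the T1 arrays, T2 replicate 3, T3 replicate 1 or T4 replicate 3 (adjusted p between 0.0503 and 0.192). T2 over T1 was -0.91 (SE 0.26) without overlap of the arrays and did not pass the test (limma adjusted p = 0.149). At T4 over T3, it rose by 0.89 (SE 0.26, limma adjusted p = 0.0143), a call lost without T3 replicate 3 (0.69, adjusted p = 0.0646). In the same comparison 36.8% of the olfactory receptor probe sets were called higher at T4, with a median difference of 0.53. The part of this shift in the Sp7 value was not tested.

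The remaining genes encode secreted signals of osteocytes. Sost encodes sclerostin, which blocks Wnt signalling at the receptors LRP5 and LRP6 and so restrains bone formation. Its log2 signal was 6.46, 5.88 and 5.89 at T0, 6.25, 6.61 and 6.62 at T1, 6.43, 6.19 and 6.47 at T2, 7.15, 7.48 and 7.03 at T3, and 6.68, 6.95 and 6.90 at T4. The T3 arrays lay above all others, with T3 over T2 at 0.85 (SE 0.21, limma adjusted p = 0.075), which did not pass the test. It passed without T4 replicate 1 (adjusted p = 0.035) or T3 replicate 3 (0.95, adjusted p = 0.0231), and the median difference of olfactory receptor probe sets at that step was 0.28. Calls over all probe sets at that step were 1961 without T4 replicate 1 and 4165 without T3 replicate 3, against 55 in the fit reported.

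Fgf23 encodes the hormone by which bone tells the kidney to shed phosphate. Its values in log2 were 4.30, 4.48 and 4.39 at T0, 3.77, 4.29 and 4.47 at T1, 4.39, 4.29 and 4.57 at T2, 5.26, 5.69 and 4.61 at T3, and 5.11, 4.99 and 4.65 at T4. It was above the olfactory 95th percentile on T3 replicate 2 alone. T3 over T2 was 0.77 (SE 0.26, limma adjusted p = 0.144) and did not pass the test. Without T3 replicate 3 it was 1.06 (adjusted p = 0.0176), in a fit that called 4165 of all probe sets at that step, against 55 in the fit reported. The olfactory 95th percentile was 5.34, 5.56 and 4.95 on the T3 arrays, in the same order of arrays as the Fgf23 values, and olfactory receptor probe sets had a median difference of 0.28 at that step. The part of that shift in the Fgf23 value was not tested. No other step passed, with differences of -0.22, 0.24 and -0.27 (SE 0.26 each) for T1 over T0, T2 over T1 and T4 over T3.

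Counted by step, 5 of 9 genes rose at T1 over T0 (Bglap, Dmp1, Mepe, Phex and Sp7) and none fell, where 4.01% of all 36685 probe sets rose and 3.54% fell. The median difference of the 9 genes was 1.11, against -0.03 over all probe sets. The arrays of T1 and T0 did not overlap for 6 of them, the same genes and Alpl, each higher at T1 (14.9% of all probe sets). At T2 over T1, 1 of 9 fell (Phex), where 0.403% of probe sets fell, with a median of -0.64 against 0.02 over all probe sets. In that comparison 54.7% of the called probe sets were higher, and 42.9% after quantile normalization.

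At T3 over T2, 0 of 9 genes passed limma's test, 3 had an unadjusted p under 0.05 (Alpl, Sost and Fgf23), and 3 passed with array weights, under which 28.5% of all probe sets passed. In the fit without weights 0.150% of all probe sets passed, of which 25.5% were higher, and 0% of those called after quantile normalization were higher. At T4 over T3, 4 of 9 fell (Bglap, Ibsp, Dmp1 and Phex) and 1 rose (Sp7), where 25.8% of probe sets fell and 16.5% rose. The called probe sets were higher in 39% of cases there, and in 51.4% after quantile normalization. The share of the 9 genes that fell at the last step stands closer to the background than the share that rose at the first.

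**Figure D2:**
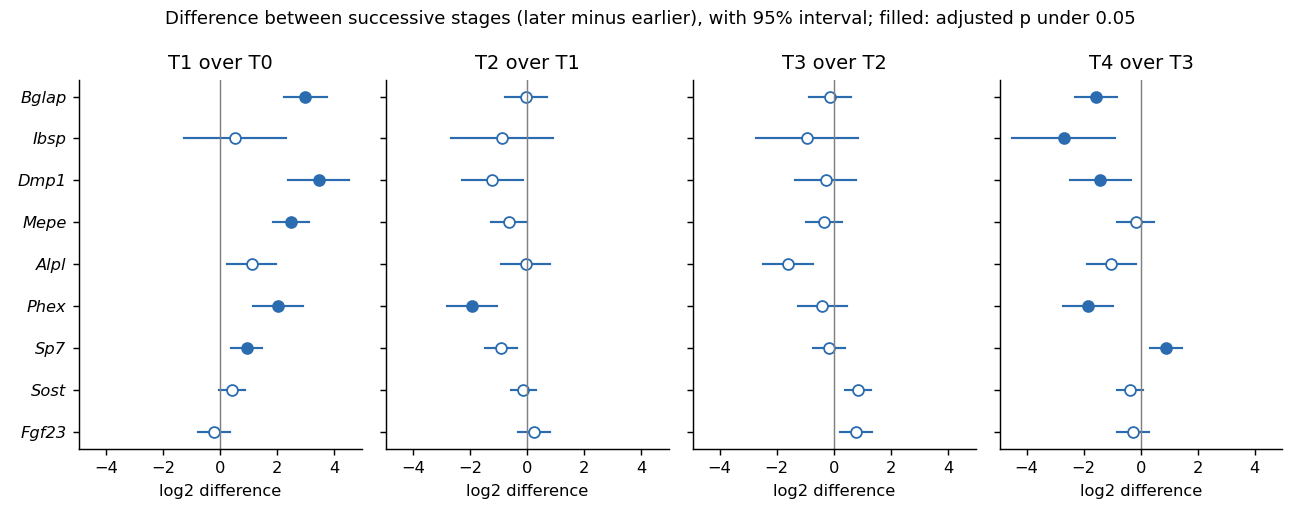
Difference in log2 signal between successive stages, later minus earlier, for each of the 9 genes, with the 95% interval of the limma fit (n = 3 arrays a stage). Filled points passed an adjusted p under 0.05: 5 genes at T1 over T0, 1 at T2 over T1, 0 at T3 over T2 and 5 at T4 over T3.

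Over longer spans, Bglap (2.95, SE 0.35), Dmp1 (2.23, SE 0.50) and Mepe (1.84, SE 0.30) were higher in adults than in newborns, which is 3 of 9 genes where 6.51% of probe sets were higher. Without T4 replicate 1, Alpl passed as well (1.06, adjusted p = 0.0103), making 4. Phex and Sp7, which had risen with them in youth, stood at 0.08 (SE 0.41) and 0.01 (SE 0.26). Whether the 2 groups of genes differ in this was not tested. At T4 over T2, 5 of 9 fell (Bglap, Ibsp, Alpl, Dmp1 and Phex) and Sp7 rose, where 29.4% of probe sets fell and 27.2% rose. The rise of Sp7 was 0.72 (SE 0.26), and its T4 and T2 arrays overlapped. In that comparison 55.1% of the olfactory receptor probe sets were called higher, with a median difference of 0.85. The part of this shift in the Sp7 value was not tested. Dmp1 lost its call there without T4 replicate 1 (-1.24, adjusted p = 0.0546), and Sp7 lost its call without any 1 of T2 replicates 2 and 3 or T4 replicates 1 and 3 (adjusted p between 0.0726 and 0.114). After quantile normalization Bglap (-0.68, adjusted p = 0.0831) and Dmp1 (-1.05, adjusted p = 0.13) lost their calls, and Sost gained one (1.23, adjusted p = 0.00088). Centring on the array median ended the call of Sp7 (0.53, adjusted p = 0.0861). In the order of each gene's stage means, 8 of 36 neighbouring stages differed by limma's test. Neighbours are by choice the closest means in these same data, which favours few calls, and no share over all probe sets was computed. The top 3 stages of Bglap (T1, T2, T3), Ibsp (T1, T0, T2), Alpl (T1, T2, T0), Dmp1 (T1, T2, T3) and Mepe (T1, T2, T3) gave no call between neighbours, nor did any neighbouring stages of Sost and Fgf23. Stages farther apart could still differ: Sost at T3 over T0 was 1.14 (SE 0.21, limma adjusted p = 0.00157). Olfactory receptor probe sets had a median difference of 0.28 in that comparison, and its part in the Sost value was not tested.

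Other genes of bone formation were taken from 4 lists, of which 32 of 34 genes were measured. At T1 over T0, 7 of 32 rose and none fell, with a median of 0.43, where 4.01% of all probe sets rose and 3.54% fell. Omd, the keratan sulfate proteoglycan osteoadherin, rose by 2.85 (SE 0.44, limma adjusted p = 0.000749). It was the only 1 of 6 osteoid genes called, and the median difference of that list was 0.29. The Wnt antagonist Dkk1 rose by 2.37 (SE 0.39, adjusted p = 0.00134), and Galnt3, which protects FGF23 from cleavage, by 1.51 (SE 0.28, adjusted p = 0.00279). They were the 2 of 13 bone and phosphate signals called, and the median difference of that list was 0.08. Of the mineralization genes 3 of 7 rose: the kinase of secreted proteins Fam20c (1.02, SE 0.22), the phosphatase of matrix vesicles Phospho1 (1.25, SE 0.27) and the pyrophosphate transporter Ankh (1.51, SE 0.37). The transcription factor Dlx3 rose by 1.44 (SE 0.39), 1 of 6 transcription factors. Under quantile normalization 1 of 7 mineralization genes and 0 of 6 transcription factors passed.

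At T2 over T1, 1 of 32 fell, where 0.403% of all probe sets fell. It was the membrane protein Pdpn of young osteocytes (-1.45, SE 0.31, adjusted p = 0.0425), a call that ended under quantile normalization and under centring on the array median. At T3 over T2 none was called. Smpd3, a sphingomyelinase needed for mineral, stood at -1.63 (SE 0.34, adjusted p = 0.0628) and Omd at -1.79 (SE 0.44, adjusted p = 0.0744). At T4 over T3, 22 of 32 fell and none rose, where 25.8% of all probe sets fell and 16.5% rose. All 6 osteoid genes were among those that fell, with Omd at -2.30 (SE 0.44), Spp1 at -2.04 (SE 0.45) and Sparc at -2.06 (SE 0.53). Under quantile normalization 3 of 6 osteoid genes passed. The receptors of sclerostin, Lrp5 (-1.36, SE 0.26) and Lrp6 (-1.32, SE 0.25), and the osteoblast regulator Runx2 (-0.98, SE 0.29) also fell at that step. Of 6 transcription factors 3 fell there, and 1 under quantile normalization.

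Mepe, Ibsp and Dmp1 are neighbours on chromosome 14 of GRCr8, in a row of 5 protein-coding genes that runs Spp1, Mepe, Ibsp, Dmp1 and Dspp. All 5 encode acidic phosphoproteins of bone or tooth. Spp1, which encodes osteopontin, had means of 10.45 ± 0.63, 11.47 ± 0.14, 11.01 ± 0.43, 10.41 ± 0.20 and 8.36 ± 1.14 from T0 to T4 (SD, n = 3). Dspp, which serves the dentin of teeth, had 4.72 ± 0.14, 4.45 ± 0.20, 4.54 ± 0.10, 4.73 ± 0.56 and 5.11 ± 0.47, and was added to the account after its values were seen. Each of these Dspp means lay below the olfactory 95th percentile of every array of its stage, which limits what they show. The row thus held Spp1, Mepe and Dmp1, whose T1 arrays all lay above their T0 arrays, as did those of 14.9% of all probe sets. Spp1 at T1 over T0 was 1.02 (SE 0.45, limma adjusted p = 0.267) and did not pass the test. Ibsp lies between Mepe and Dmp1, and its arrays of those stages overlapped.

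**Figure D3:**
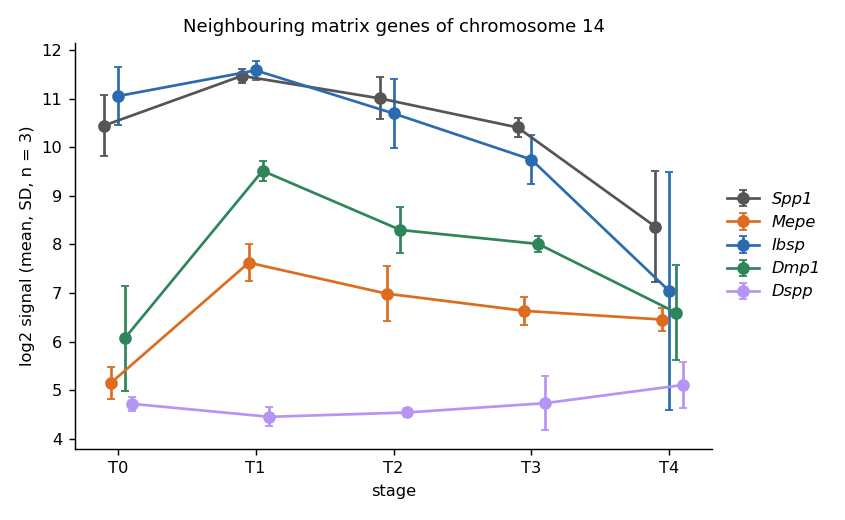
Mean log2 signal with SD (n = 3 arrays a stage) of the 5 neighbouring genes on chromosome 14 over the stages T0 to T4. Mepe and Dmp1 are lowest at T0 and highest at T1, Spp1 and Ibsp are highest at T1 and lowest at T4, and Dspp stays between 4.45 and 5.11; levels of different probe sets are not comparable with each other.

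T0 replicate 2 had the lowest newborn value of 7 of the 9 genes and T0 replicate 3 the highest of 6. T2 replicate 1 had the highest adult value of 7 genes, all but Sost and Fgf23. T4 replicate 1 had the lowest value of 6 genes and T4 replicate 2 the highest of the same 6. On the same arrays the mean of 5 measured osteoclast genes was 6.19 on T0 replicate 2, against 7.33 and 7.23 on the other newborn arrays, and 8.66 on T2 replicate 1, against 7.94 and 7.91 on the other adult arrays. The mean of 5 genes of hypertrophic chondrocytes was 7.58 on T0 replicate 2, against 7.91 and 8.69, and 8.20 on T2 replicate 1, against 7.63 and 7.80. The order was not particular to these lists: 10 cartilage matrix genes gave 10.25 on T0 replicate 2, against 10.30 and 10.51. On T2 replicate 1 they gave 9.87, against 9.11 and 9.6. Other lists differed: matrix mineralization was lowest on T0 replicate 1 (7.59), and neutrophil and myeloid genes had their lowest adult mean on T2 replicate 1 (10.31).

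Pairs of the 9 genes differed in how closely their arrays ran together over T0 to T3 (Pearson correlation over 12 arrays that share their stages, given as a description). Dmp1 and Mepe stood at 0.94, Bglap and Mepe at 0.92, Sp7 and Phex at 0.90 and Bglap and Dmp1 at 0.87. Ibsp stood at 0.80 with Phex, 0.74 with Alpl and -0.08 with Bglap. Sost and Fgf23 stood at 0.76 with each other, with Fgf23 above the olfactory 95th percentile on T3 replicate 2 alone.

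By the same measure, the genes most like each member were sought among 17466 other named genes. For Bglap they were Gimap7 (0.98), a small GTPase of lymphocytes, the B cell receptor chain Cd79a (0.98) and Unc79 (0.98). For Ibsp they were Myo1e (0.96), Serpinf1 (0.95), an anti-angiogenic serpin that bone cells secrete, and Clec11a (0.95), known as the bone growth factor osteolectin. Fcmr, the receptor for IgM on lymphocytes, was among the nearest of both Dmp1 (0.96) and Mepe (0.97), together with Esr1 (0.95) and Steap3 (0.95) for Dmp1 and Bcar3 (0.98) and Il7 (0.95) for Mepe. Phex ran with Gpnmb (0.96), a glycoprotein of bone cells and macrophages, the bone morphogenetic protein Bmp3 (0.95) and Dlx3 (0.95). Alpl ran with Arsb (0.94), Jak1 (0.93) and Dera (0.93), and Sp7 with Suox (0.90), the osteoclast lectin Siglec15 (0.89) and Dusp19 (0.89). Sost ran with the immediate early gene Junb (0.96), C5h1orf174 (0.94) and Ran (0.92), and Fgf23 with Lct (0.97), Abca12 (0.97) and Chmp4bl1 (0.96). The correlations of Fgf23 rest on low signals, which limits what they show. With the T4 arrays added, Esr1 stood at 0.14 with Dmp1, Dusp19 at 0.17 with Sp7, and Ran at 0.29 and C5h1orf174 at 0.58 with Sost.

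Markers of other cells moved over the same steps, and the labels do not say whether bone beneath the cartilage was part of the tissue. At T1 over T0, all 5 measured erythroid genes, 10 of 11 neutrophil and myeloid genes and all 4 B cell genes rose. Of all probe sets, 4.01% rose and 3.54% fell at that step. The list mean per array ran from 9.84 to 10.02 at T1, against 4.90 to 5.84 at T0, for erythroid genes. It ran from 8.69 to 9.10 at T1 against 4.88 to 6.08 at T0 for neutrophil and myeloid genes, and from 8.42 to 8.60 at T1 against 4.89 to 5.34 at T0 for B cell genes. Of 5 measured osteoclast genes 2 rose, with a list mean of 8.21 to 8.51 at T1 against 6.19 to 7.33 at T0, and of 5 hypertrophic chondrocyte genes 1 rose, with 8.74 to 9.13 at T1 against 7.58 to 8.69 at T0. On the T0 arrays, 3 to 4 of 5 erythroid genes, 6 to 9 of 11 neutrophil and myeloid genes and 2 to 3 of 4 B cell genes lay above the olfactory 95th percentile. Of 7 adipocyte genes 5 rose, and 0 of 4 endothelial genes were called. Of 8 measured skeletal muscle genes 7 fell, with a list mean of 8.52 to 9.38 at T1 against 10.47 to 11.04 at T0. Of 10 cartilage matrix genes 1 rose (Chad) and 2 fell (Col9a2 and Col11a2), and of 5 tendon and ligament genes 2 fell. Chad, Col9a2 and Col11a2 are named after their values were seen. The part of these markers in the rise of the bone genes was not tested.

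At T2 over T1, 0 of 5 erythroid genes, 0 of 11 neutrophil and myeloid genes and 0 of 4 B cell genes fell, and 1 of 11 neutrophil and myeloid genes rose. Of all 36685 probe sets, 0.403% fell at that step, and 54.7% of the 327 called in either direction were higher. Of 5 hypertrophic chondrocyte genes 1 fell, with a list mean of 7.63 to 8.20 at T2 against 8.74 to 9.13 at T1, and all 8 measured skeletal muscle genes fell. Of 7 adipocyte genes 3 fell, of 10 cartilage matrix genes 1, of 4 endothelial genes 1 and of 5 tendon and ligament genes 1, and of 5 osteoclast genes 1 rose. Their part in the fall of Phex was not tested. At T4 over T3, 7 of 10 cartilage matrix, 3 of 5 erythroid and 4 of 11 neutrophil and myeloid genes fell. So did 4 of 4 B cell and 2 of 5 osteoclast genes, beside the 25.8% of all probe sets that fell. Of 5 hypertrophic chondrocyte genes 2 fell, of 4 endothelial genes 3 and of 5 tendon and ligament genes 2. Of 7 adipocyte genes 3 fell and 1 rose. Of 8 skeletal muscle genes 0 fell and 1 rose, where 16.5% of all probe sets rose. The part of these markers in the falls of the bone genes was not tested.

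**Figure D4:**
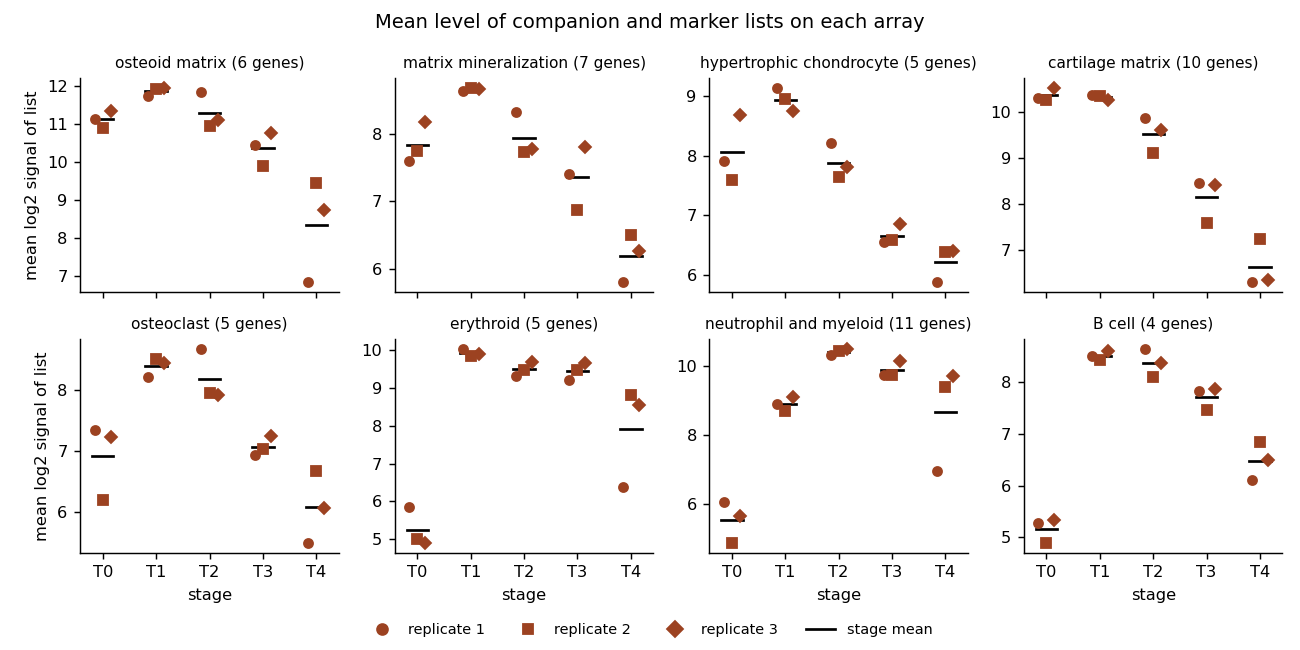
Mean log2 signal of each list's measured genes on each array (symbols, by replicate) over the stages T0 to T4, with the stage mean as a black bar (n = 3), for 2 lists of bone matrix genes and 6 lists of other cells and cartilage. Axes differ between panels and do not start at 0. The erythroid, neutrophil and myeloid and B cell lists have their lowest stage mean at T0. The osteoid, mineralization, hypertrophic chondrocyte, osteoclast, erythroid and B cell lists have their highest at T1.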

How the data were processed

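The deposited table holds log2 signals of 36685 probe sets on 15 arrays, which the authors deposited after RMA (per the submitters' processing notes). The sources used here give neither its version nor a genome build. The deposited arrays do not share 1 distribution (SD over probe sets from 1.48 to 2.05), so quantile normalization of the deposited values was run as an alternative; either scaling can remove changes shared by most transcripts. Precision is limited by having 3 arrays a stage, and the median of an array ran from 4.94 to 5.28. Genes were named by the platform annotation, in which 18511 probe sets carry 1 symbol, 575 several and 17599 none. A mean per stage was fitted by limma 3.58.1 (R 4.3.3; lmFit, then eBayes), pooling the spread over stages. P-values were adjusted by Benjamini-Hochberg across the whole table for each comparison, with calls made below 0.05. Differences are later minus earlier stage, and fold is 2 to the power of that difference. The script was tested on simulated data. The members and lists were chosen with earlier results of these data known. All 9 members are named. Of the 4 lists of bone formation genes, the called genes with the smallest p (up to 3 a list) or, with no call, the gene with the largest change could be named per comparison, and for each member the 3 genes with the highest correlation over T0 to T3 (1 symbol, no member, none starting LOC, RGD, Olr, Mir, Snor or Vom); Col2a1, Acan and Prg4 checked the tissue. The 10 marker lists covered osteoclast, hypertrophic chondrocyte, cartilage matrix, erythroid, neutrophil and myeloid, B cell, adipocyte, skeletal muscle, endothelial, and tendon and ligament genes. Replicate numbers did not pair the arrays: of 30 pairs of same-numbered arrays from different stages, 1 had deviations from the stage means that correlated above 0.1.
Alternatives changed the scaling, array weights, variance prior, replicate block, arrays in the fit, the stage of T1 replicate 3 and a filter on dim probe sets, and left out each array in turn.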

Additional observations from a re-analysis of the deposited data

How the results depend on the processing

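Of 1299 values of single genes under the alternatives, 1217 kept their side of the threshold, 51 lost the call and 31 gained it. A change of direction was counted as reversed only where a call was involved, and 0 were. Differences called in neither fit could change direction within the 1217, as Mepe at T4 over T3 did (from -0.34 to 0.29). With T1 replicate 3 placed with T2, 3 genes were called at T1 over T0 in place of 5. At T2 over T1 the count of 1 became 0 after quantile normalization, with the replicate block, with only the arrays compared and with T1 replicate 3 placed with T2, and 2 with array weights. At T3 over T2 the count of 0 became 3 with array weights and 2 without the T4 arrays. At T4 over T3 the count of 5 became 2 after quantile normalization and 1 with only the arrays compared. Leaving out 1 array at a time gave 4 to 6 called genes at T1 over T0, 0 to 1 at T2 over T1, 0 to 3 at T3 over T2, 2 to 6 at T4 over T3, 3 to 4 at T2 over T0, 4 to 6 at T4 over T2 and 8 to 9 in the F test. The replicate block, on numbers that did not pair the arrays, moved the adjusted p of Sp7 at T1 over T0 to 0.0669 and of Phex at T2 over T1 to 0.0725. Over all probe sets, array weights raised the calls to 6852 at T1 over T0 (2772 in the fit reported), 2381 at T2 over T1 (327) and 10464 at T3 over T2 (55), and T1 replicate 3 placed with T2 lowered them to 1777, 9 and 47. Across all alternatives fitted to every stage, calls ran from 0 to 10464 at T3 over T2 and from 11534 to 21580 at T4 over T3 (15493). They ran from 3508 to 9230 at T2 over T0 (4659) and from 14611 to 24855 at T4 over T2 (20728). The 14611 is from the filter on dim probe sets, which left 20923 to test. With all 36685 tested the lowest at T4 over T2 was 17282, after quantile normalization. Centring on the array median gave a median over all probe sets of -0.04 in place of 0.09 at T3 over T2 and -0.12 in place of 0.07 at T4 over T2. Leaving out the T3 and T4 arrays together was chosen after seeing the data. The choice of probe set was not run, since each gene had 1. Fgf23 lay near the signals of olfactory receptors, which limits what its values show. The causes of these changes were not tested.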
